A study of Mus musculus with 4 samples.

Results

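The Sult2a hydroxysteroid sulfotransferases and the Sult3a sulfotransferases of mouse liver were followed here as a set of 9 genes, called the family below. It held 7 genes of the Sult2a group (Sult2a1, Sult2a2, Sult2a3, Sult2a4, Sult2a6, Sult2a7 and Sult2a8, which the array names 2810007J24Rik). Both genes of the Sult3a group (Sult3a1 and Sult3a2, which the array names Gm4794) were the others. They are 9 of 30139 genes on the array and were read by 11 of its 39429 probes, 3 of which the array assigns to Sult2a6. The genes were picked because several of them differed between RNA labelled AAV_Cre and RNA labelled AAV_Null on these same arrays. Their ratios are therefore given as a description with no p-value, and how many passed a threshold is given only beside the share of all genes that did. All mice were female C57B/6 of 8 to 10 weeks, and all of them, the controls included, carried floxed Trib1 on both alleles. One set had received an adeno-associated virus with Cre recombinase (AAV_Cre) and the other a virus named AAV_Null, and whole liver was taken 1 week later, after a fast of 4 hours. The promoter that drives Cre is not named in the labels. Whether an RNA was that of 1 animal or pooled is not given either, so the spread between arrays may be partly technical. Each of 4 arrays carried 1 RNA of each treatment, each RNA hybridised once, with AAV_Cre in the red dye Cy5 on arrays 1 and 2 and in the green dye Cy3 on arrays 3 and 4. In bulk liver RNA, fewer cells of a type and less RNA per cell cannot be told apart.

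Cytosolic sulfotransferases move a sulfonate group from the donor PAPS to a hydroxyl or amine group of a small molecule, which makes it more soluble in water. Enzymes of the Sult2a group act on hydroxysteroids such as dehydroepiandrosterone and on bile acids, and the genes lie side by side as near copies of one another. In mouse liver these genes are known to be higher in females, and the bile acid receptor FXR and the xenobiotic receptors CAR and PXR are known to act on them.

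Some of the probes are near copies too, so their bases come before their values. The array's own annotation gave mm9 positions for all 11. In order along chromosome 7 the Sult2a probes lay in Sult2a2 (chr7:14364926-14364985), Sult2a1 (chr7:14381602-14381661), Sult2a4 (chr7:14495026-14495085), Sult2a3 (chr7:14652904-14652927, 24 of its 60 bases), Sult2a6, Sult2a8 (chr7:14996296-14996355) and Sult2a7 (chr7:15050514-15050573). The 3 Sult2a6 probes started at bases 720, 738 and 437 of their transcripts (chr7:14811213-14811272, chr7:14807923-14811254 across an exon junction, and chr7:14835693-14835752) and are named by those bases below. The Sult3a probes lay on chromosome 10, in Sult3a2 (chr10:33499545-33499604) and Sult3a1 (chr10:33599125-33599184). For 6 of the 11 probes, all of them Sult2a, the array's annotation also listed a RefSeq transcript of another Sult2a gene. The probes of Sult2a1, Sult2a2, Sult2a4 and Sult3a1 held a stop codon in each forward frame and the polyadenylation signal AATAAA, while the other 7 had an open forward frame.

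The probes of Sult2a1, Sult2a2 and Sult2a4 share most of their bases. Sult2a1 and Sult2a2 had 54 identical bases over 59 aligned and a longest identical run of 26. Sult2a1 and Sult2a4 had 51 over 54 with a run of 36, and Sult2a2 and Sult2a4 had 47 over 53 with a run of 15. A stretch of 30 bases shows how little separates them. Capitals mark each base that differs from Sult2a1.
Sult2a1, probe bases 7 to 36: ttgttgtgtatcttgaatacctagatgtgg
Sult2a4, probe bases 1 to 30: ttgttCtgtatcttgaatacctagatgtgg
Sult2a2, probe bases 8 to 37: ttgttCtAtatcttgaatacctGAatAtgg
Counted from 1 at the stretch's 5′ end, Sult2a4 differed from Sult2a1 by G6C alone, and Sult2a2 differed by G6C, G8A, A23G, G24A and G27A. A signal at 1 of these 3 probes can include RNA of the others. The annotation also listed a Sult2a4 transcript for the Sult2a1 probe and a Sult2a1 transcript for the Sult2a4 probe. For the Sult2a2 probe it listed a transcript of Sult2a5, a gene not followed here, so that signal may include Sult2a5 RNA.

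The other close pair was 2 probes that the array assigns to 1 gene, Sult2a6. Because they differ where they overlap, they cannot both match 1 transcript at every base. Sult2a6 base 720 and Sult2a6 base 738 overlap by 42 bases, and capitals mark the 2 positions in the overlap where they differ, A30G and A32G counted from the 5′ end of the base 720 probe.
Sult2a6 base 720: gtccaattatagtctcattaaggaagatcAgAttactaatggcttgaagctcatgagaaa
Sult2a6 base 738: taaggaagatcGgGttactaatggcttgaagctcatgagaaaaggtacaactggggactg
Of the 55 pairs of probes, the remaining 51 had longest identical runs of only 5 to 8 bases. The probes of Sult2a3, Sult2a7 and Sult3a2 are shown whole because they share no long run with the others, although with gaps allowed Sult2a3 had 36 identical bases over 47 aligned with Sult2a2. Matches to transcripts of other Sult2a copies were not analysed here. They are printed without capitals because no single base is singled out.
Sult2a3: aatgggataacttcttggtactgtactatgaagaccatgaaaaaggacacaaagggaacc
Sult2a7: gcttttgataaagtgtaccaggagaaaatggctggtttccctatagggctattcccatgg
Sult3a2: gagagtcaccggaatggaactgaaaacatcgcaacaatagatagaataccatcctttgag
For Sult2a3 the annotation also listed a Sult2a4 transcript, whereas for Sult2a7 and Sult3a2 it listed no other family gene.

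**Figure D1:**
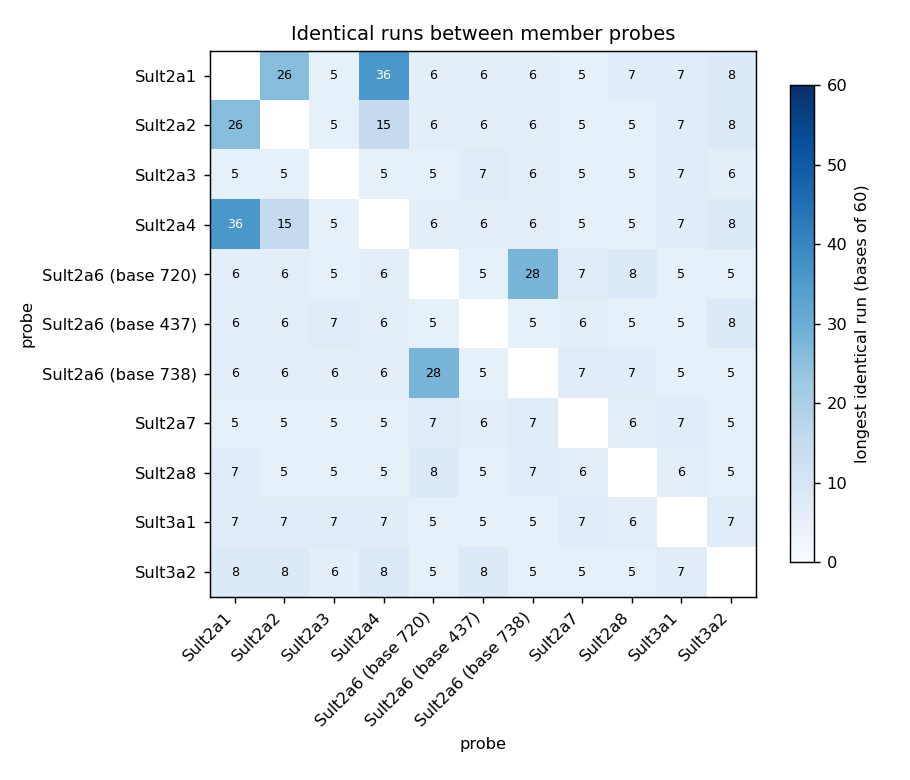
Longest identical run of bases (colour and printed number, of 60) between each pair of the 11 probes, with probes on both axes. The 3 pairs among Sult2a1, Sult2a2 and Sult2a4 (15 to 36 bases) and the overlapping Sult2a6 pair (28 bases) stand out from the other pairs, which share 5 to 8.

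On each array, 43020 spots were not controls, 51.0% to 55.3% of them well above background in Cy5 and 53.1% to 58.7% in Cy3, and 0 were saturated. Across genes, which are not independent replicates, the log2 ratios of arrays 1 and 2 had a Pearson correlation of 0.66 and those of arrays 3 and 4 one of 0.49. For arrays of opposite dyes it was 0.07 to 0.19. Trib1, the gene that Cre was meant to remove, was higher in RNA labelled AAV_Cre, with log2 ratios of 0.64, 1.02, 1.09 and 1.01 on arrays 1 to 4 and a fitted value of 0.94 ± 0.08 (SE, n = 4 arrays, limma adjusted p = 0.0210). Which part of the gene was floxed is not given in the labels. A probe outside it would not test the deletion, so each direction below rests on the labels alone. Of 12 hepatocyte markers, all 12 were measured, 1 (Trf) was lower at the threshold, and their summed level was 20.1 to 20.9 in AAV_Cre and 20.5 to 20.9 in AAV_Null on the log2 scale. Trf split by dye, with log2 ratios of 0.27 and 0.33 on arrays 1 and 2 and -1.18 and -1.51 on arrays 3 and 4, and Alb and Serpina1a split the same way.

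For 7 of the 9 genes, the fitted probe had far more signal in RNA labelled AAV_Cre, by 3.20-fold to 5.48-fold. The 3.20 is that of the Sult2a6 probe, for which a Sult2a1 transcript is also listed. The only Sult2a6 probe with no other family gene listed was not above background, so a rise of Sult2a6 itself is not shown. Sult2a8 had less, at 0.553 of the AAV_Null level. Sult3a1 was read cleanly on 1 array only. The 8 fitted genes had a median log2 ratio of 1.98, against -0.0025 over all genes. At a limma adjusted p under 0.05, the threshold used throughout, 7 of the 8 were called higher and 1 was called lower, beside 1.78% of all 16081 genes tested called higher and 0.976% called lower. The genes were selected on this contrast, so nothing is read from that comparison.

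Sult2a1, a sulfotransferase of dehydroepiandrosterone and bile acids, had log2 ratios of AAV_Cre over AAV_Null of 1.01, 2.13, 1.90 and 1.92 on arrays 1 to 4. Array 1 was the low one, and the other 3 lay close together. The normalised log2 intensity was 16.66, 15.76, 16.08 and 16.01 in the AAV_Cre RNAs and 15.64, 13.63, 14.18 and 14.08 in the AAV_Null RNAs. The lowest AAV_Cre level was only just above the highest AAV_Null level, which was that of array 1, so the treatments did not overlap. The fitted log2 ratio was 1.74 ± 0.19 (SE, n = 4 arrays), or 3.35-fold.

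Sult2a2, whose probe shares 54 bases with that of Sult2a1, followed it closely, with log2 ratios of 1.23, 2.24, 1.87 and 1.89. Its array 1 spot was marked as an outlier by the scanner software, and without it the fitted value was 2.06 ± 0.07 (SE, n = 3 arrays), or 4.17-fold. With all 4 spots the mean was 1.81 ± 0.42 (SD). The AAV_Cre levels of 16.49, 15.99, 16.62 and 16.56 were all above the AAV_Null levels of 15.27, 13.75, 14.75 and 14.66. The difference between Sult2a1 and Sult2a2 on the same array averaged -0.06 ± 0.12 (SD, n = 4 arrays) and ran from -0.21 to 0.03, so these 2 probes did not separate.

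Sult2a4, a further near copy, had log2 ratios of 1.57, 2.78, 2.23 and 2.31, lowest on array 1 and highest on array 2 as for Sult2a1. Its levels were 14.76, 13.80, 13.52 and 12.99 in AAV_Cre and 13.19, 11.02, 11.29 and 10.67 in AAV_Null. It was the 1 fitted gene whose treatments overlapped, because its AAV_Null level on array 1 was above its AAV_Cre level on array 4. The fitted value was 2.22 ± 0.20 (SE, n = 4 arrays), or 4.67-fold. Its ratio exceeded that of Sult2a1 on each of the 4 arrays, by 0.48 ± 0.15 (SD), although their probes share a run of 36 bases.

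Sult2a3, read by a probe with an open forward frame that shares runs of no more than 7 bases with any other, gave 1.68, 2.57, 2.18 and 2.21. Its levels were 12.23, 11.72, 11.27 and 11.37 in AAV_Cre against 10.54, 9.14, 9.09 and 9.16 in AAV_Null, with no overlap. The fitted value was 2.16 ± 0.15 (SE, n = 4 arrays), or 4.47-fold. The Sult2a3 and Sult2a4 probes differed by -0.06 ± 0.13 (SD) on the same array, with both signs seen. The annotation also listed a Sult2a4 transcript for the Sult2a3 probe, so both may read Sult2a4 RNA. Short runs between probes do not show that they read different RNAs.

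Sult2a6 has 3 probes, of which 2 gave similar ratios. The array's annotation also listed a Sult2a1 transcript for the probe at base 720, and Sult2a1 and Sult2a5 transcripts for that at base 738, so their signal may be partly or wholly RNA of those genes. The probe at base 720 had log2 ratios of 1.53, 2.27, 1.65 and 1.45, with the array 3 spot marked, and a fitted value of 1.68 ± 0.18 (SE, n = 3 arrays), or 3.20-fold. The probe at base 738 had 1.27, 2.19, 1.80 and 1.81, with the spots of arrays 1 and 3 marked, so it was not fitted. For both, every AAV_Cre level was above every AAV_Null level, at 13.82 to 14.80 against 11.81 to 13.27 for base 720 and 14.99 to 15.42 against 12.80 to 14.14 for base 738. The probe at base 437, the only one of the 3 with no other family gene listed, was not well above background in any of the 8 channels, and no fold is given for it.

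Sult2a7 had log2 ratios of 1.14, 2.06, 2.17 and 2.20, with array 1 well below the other 3. Its AAV_Cre levels hardly varied, at 15.89, 15.79, 16.03 and 15.98, while AAV_Null was at 14.75, 13.73, 13.86 and 13.79. The treatments did not overlap, and the low ratio of array 1 went with its high AAV_Null level. The fitted value was 1.89 ± 0.16 (SE, n = 4 arrays), or 3.71-fold.

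Sult2a8, known for sulfonating bile acids in mouse liver, went the other way. Its log2 ratios were -0.95, -1.21, -0.80 and -0.46. All 4 arrays were below 0, and the AAV_Cre levels of 13.72, 13.94, 13.73 and 13.63 were all under the AAV_Null levels of 14.67, 15.15, 14.53 and 14.09. The fitted log2 ratio was -0.85 ± 0.08 (SE, n = 4 arrays), which is 1.81-fold lower. Its probe lay between those of Sult2a6 and Sult2a7 along chromosome 7, both of which had positive ratios. On each array Sult2a7 exceeded Sult2a8 by between 2.09 and 3.26.

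Sult3a2, 1 of the 2 genes of the Sult3a group on chromosome 10, had the largest ratio of the family. Its log2 ratios were 2.15, 2.98, 2.44 and 2.24. Its AAV_Cre levels were 10.98, 11.45, 12.12 and 11.43 against 8.84, 8.47, 9.67 and 9.18 in AAV_Null, without overlap, and array 3 was the high one in both. The fitted value was 2.46 ± 0.15 (SE, n = 4 arrays), or 5.48-fold, the second highest of 16081 genes.

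Sult3a1 had log2 ratios of 0.74, 1.98, 0.77 and 1.15, of which only the last came from an unmarked spot, so it was not fitted. With all spots the mean was 1.16 ± 0.58 (SD, n = 4 arrays), or 2.24-fold. Its AAV_Cre levels of 15.98, 15.72, 15.99 and 15.28 were all above the AAV_Null levels of 15.24, 13.73, 15.22 and 14.13, by a narrow margin. On each array its ratio was below that of Sult3a2, by 1.00 to 1.67. Marked spots made up 2.66% of the spots of probes with a mean log2 intensity above 13 and 1.33% of those of dimmer probes, and the Sult3a1 probe was among the bright ones.

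**Figure D2:**
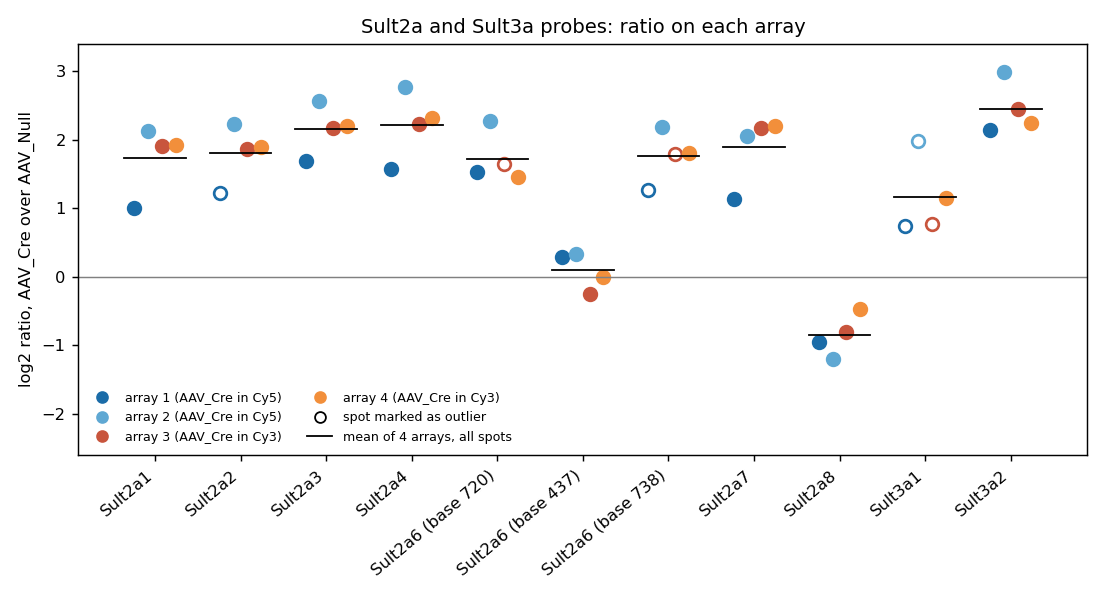
Log2 ratio of AAV_Cre over AAV_Null (y axis) on each of the 4 arrays for the 11 probes (x axis). Open points are spots marked as outliers and bars are means of all 4 spots. Array 1 is lowest for most probes with a positive ratio, Sult2a8 lies below 0 on all 4 arrays, and Sult2a6 base 437, which was not above background, lies around 0.

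Of the 8 fitted genes, 6 had every AAV_Cre level above every AAV_Null level and 1, Sult2a8, had every AAV_Cre level below. Over all genes tested, 3.15% had such a separation with AAV_Cre higher and 2.61% with AAV_Cre lower, a background set here beside values that were themselves selected on. Within 1 dye orientation the picture was similar. On arrays 1 and 2 alone the log2 ratios of the 7 higher genes were 1.57 to 2.57, and on arrays 3 and 4 alone they were 1.45 to 2.34. For Sult2a8 the values were -1.08 and -0.63. A marked spot was dropped for Sult2a2 on array 1 and for Sult2a6 on array 3. Their values in that orientation therefore rest on 1 array each, and the 1.45 is that of Sult2a6 on array 4.

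Most probes with positive ratios moved alike between arrays. They are not separate readings, since several share bases or list a transcript of another family gene. Sult2a8 was not among them, and its AAV_Null level was highest on array 2, at 15.15. Of the 9 probes that were above background with positive ratios, 8 had their lowest ratio on array 1, where the median was 1.27, and 8 had their highest on array 2, where it was 2.24. Medians on arrays 3 and 4 were 1.90 and 1.92. In the channel levels this spread was wider in the AAV_Null than in the AAV_Cre RNAs. In the AAV_Null RNA of array 1, 8 of the 9 probes, all but Sult3a2, were above their mean over the 4 AAV_Null RNAs. The median deviation was 0.78 on the log2 scale. The AAV_Null RNA of array 2 had 0 of 9 above that mean, with a median deviation of -0.57. The AAV_Cre RNAs of the 4 arrays had medians of 0.28, -0.10, -0.03 and -0.12. Over 7193 other genes of mean log2 intensity above 10, the same medians lay between -0.04 and 0.03. Normalisation holds these medians near 0, so they do not measure how far single genes strayed. The lower and upper quartiles of those genes were -0.13 and 0.11 in the AAV_Null RNA of array 1. They were -0.10 and 0.11 in that of array 2. For Sult2a7 the range over arrays was 1.02 in AAV_Null and 0.24 in AAV_Cre, and for Sult2a1 it was 2.01 and 0.90. Which differences between animals, extractions or labelling reactions went with this spread was not tested.

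**Figure D3:**
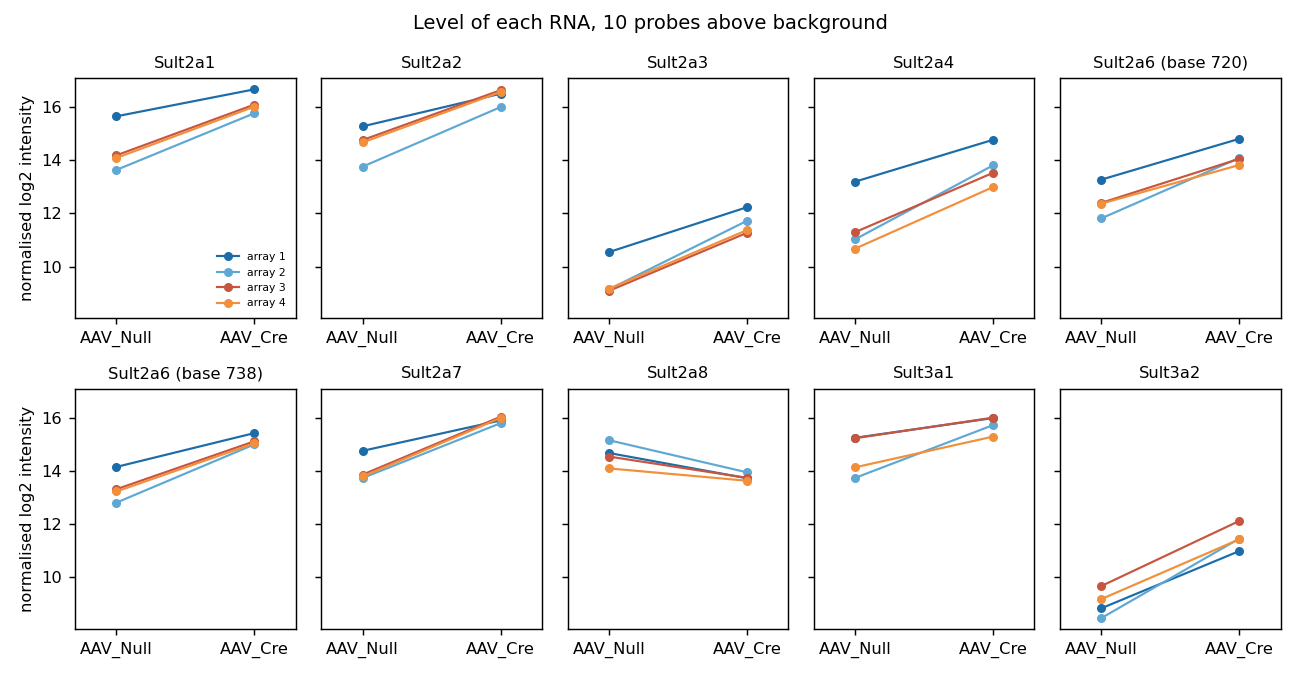
Normalised log2 intensity (y axis, 1 scale for all panels) in the AAV_Null and AAV_Cre RNA of each array, joined by a line, for the 10 probes above background. For Sult2a1 the AAV_Null levels run from 13.63 to 15.64 and the AAV_Cre levels from 15.76 to 16.66, and Sult2a8 is the panel where all 4 lines fall. In the Sult3a1 panel the lines of arrays 1 and 3 nearly coincide.

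RefSeq promoters on GRCm38.p6, from 250 bases before to 50 after each annotated start, were at hand for 6 of the 9 genes, with 2 starts for Sult2a8. Those of Sult2a3, Sult2a4 and Sult2a6 are near copies. Sult2a3 and Sult2a4 had 92.9% identity over 241 aligned bases, Sult2a4 and Sult2a6 had 85.8% over 254, and Sult2a3 and Sult2a6 had 81.7% over 278. No alignment of these 3 with a Sult2a8 or Sult3a promoter ran past 59 bases. The 250 bases before the start are shown for these 3 and for the first start of Sult2a8, whose probe had a negative ratio. Any link between promoter letters and ratios was not tested. Capitals mark matches, on either strand, to the letters GTCATGAAC, TTGCNNAA, GTTAAT or TATAAA.
Sult2a3, chr7:14123049-14123298, minus strand: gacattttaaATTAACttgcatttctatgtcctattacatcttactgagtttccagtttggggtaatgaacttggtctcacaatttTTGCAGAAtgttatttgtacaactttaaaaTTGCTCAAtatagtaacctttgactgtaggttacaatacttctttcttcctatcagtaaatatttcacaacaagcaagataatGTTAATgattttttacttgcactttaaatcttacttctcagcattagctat
Sult2a4, chr7:13989589-13989838, minus strand: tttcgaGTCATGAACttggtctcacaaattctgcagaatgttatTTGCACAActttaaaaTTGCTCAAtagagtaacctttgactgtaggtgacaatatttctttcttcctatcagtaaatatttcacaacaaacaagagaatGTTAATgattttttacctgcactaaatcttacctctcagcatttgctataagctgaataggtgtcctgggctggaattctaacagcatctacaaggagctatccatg
Sult2a6, chr7:14254871-14255120, minus strand: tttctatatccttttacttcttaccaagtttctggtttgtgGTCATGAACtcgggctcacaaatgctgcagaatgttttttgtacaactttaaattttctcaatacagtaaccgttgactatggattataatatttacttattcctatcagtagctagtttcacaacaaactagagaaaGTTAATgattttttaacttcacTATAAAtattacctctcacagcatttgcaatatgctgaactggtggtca
Sult2a8 start 1, chr7:14446588-14446837, minus strand: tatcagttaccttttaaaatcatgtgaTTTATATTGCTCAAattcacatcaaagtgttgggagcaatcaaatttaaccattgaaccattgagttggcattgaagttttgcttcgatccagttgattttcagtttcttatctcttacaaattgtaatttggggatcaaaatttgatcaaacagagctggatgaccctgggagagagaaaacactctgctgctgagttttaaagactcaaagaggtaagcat

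The letters GTCATGAAC form the core of an inverted repeat without a spacer, a kind of element known to bind FXR, PXR and CAR in rodent Sult2a genes. They were in 2 of the 7 promoters, at bases -244 to -236 of Sult2a4 and -209 to -201 of Sult2a6, and in 0.164% of 32851 promoters of the same length. This motif was chosen after the promoters had been read. TTGCNNAA, a form of the site of C/EBP factors, was in 3 of the 7, with 2 matches each in Sult2a3 and Sult2a4 and 1 in Sult2a8 start 1, and in 10.8% of all promoters. GTTAAT, the half-site of the hepatocyte factor HNF1, was in 4 of the 7 (Sult2a3, Sult2a4, Sult2a6 and Sult3a2) and in 7.1% of all. The promoters of Sult2a3, Sult2a4 and Sult2a6 are near copies. Motif matches that they have in common are therefore not separate sites to be set against these shares.

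TATAAA, the TATA box, was in 4 of the 7 and in 13.6% of all promoters, and at Sult2a8 start 2 and Sult3a2 it stood at bases -29 to -24. The nuclear receptor half-site AGGTCA was in Sult2a8 start 2 alone, with 2 matches, and in 16.3% of all. TTCNNNGAA, the site of STAT5, which carries the growth hormone signal in liver, was in Sult3a1 alone and in 8.3% of all. The TATAAA and TTGCNNAA matches of Sult2a8 start 1 adjoin without overlapping. These matches describe letters in a window and are not evidence of binding.

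**Figure D4:**
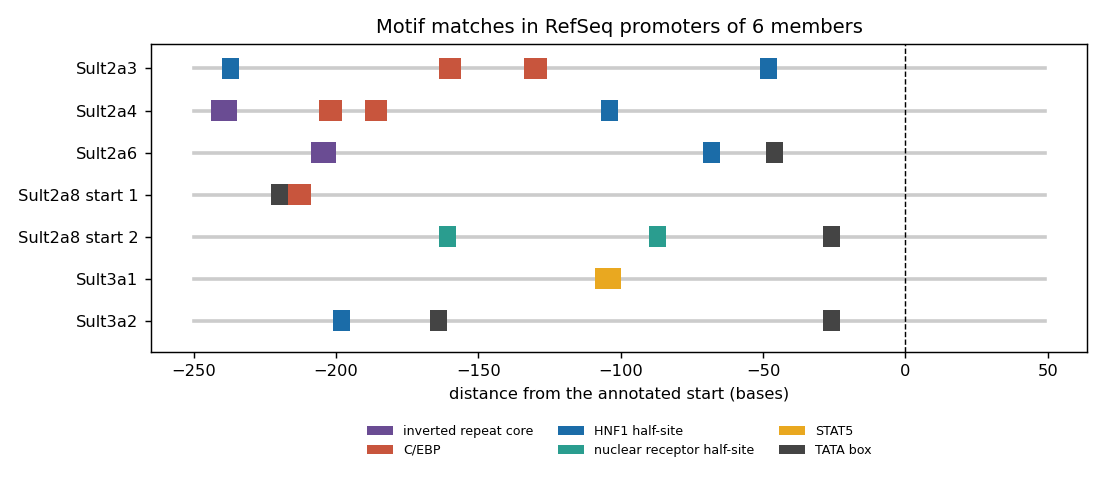
Position of each motif match (coloured boxes) in 7 RefSeq promoters of 6 genes, by distance in bases from the annotated start (dashed line at 0). The inverted repeat core occurs at Sult2a4 and Sult2a6, and the HNF1 half-site at Sult2a3, Sult2a4, Sult2a6 and Sult3a2.

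Genes of the surrounding pathway were read from 6 lists of 130 genes in all, none of them Sult2a or Sult3a. Of these, 117 were measured, 13 were higher and 9 lower in RNA labelled AAV_Cre at the limma threshold, beside 1.78% and 0.976% over all genes. The lists were compiled with earlier results of these arrays known. Among 15 measured genes of the other cytosolic sulfotransferases, PAPS supply and desulfation, 1 rose, 1 fell and 13 did not pass, with a median log2 ratio of -0.05.

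Sult1e1, the oestrogen sulfotransferase, had the highest log2 ratio of all 16081 genes. Its values were 2.62, 3.05, 2.55 and 2.93 on arrays 1 to 4, and it rose by 2.79 ± 0.11 (SE, n = 4 arrays, limma adjusted p = 0.00846), or 6.90-fold. All 4 arrays were high, and the AAV_Cre levels of 11.18 to 13.11 did not overlap the AAV_Null levels of 8.64 to 10.06. Sult1c2, another cytosolic sulfotransferase, fell by 0.75 on the log2 scale, with an SE of 0.10 and a limma adjusted p of 0.0392. The enzymes that make PAPS did not pass: the log2 ratio of Papss1 was -0.23 (adjusted p = 0.242) and that of Papss2 was -0.02 (adjusted p = 0.942).

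Of 23 enzymes that make or alter steroid and bile acid substrates, 3 rose, 2 fell and 18 did not pass, with a median of 0.06. Hsd17b10, a mitochondrial hydroxysteroid dehydrogenase, rose by 0.69 ± 0.06 (SE, limma adjusted p = 0.0225), with 0.32, 0.53, 0.87 and 1.01 on arrays 1 to 4. Cyp17a1, which makes dehydroepiandrosterone from pregnenolone, rose by 0.66 ± 0.06 (adjusted p = 0.0217). Hsd11b1, which reactivates glucocorticoid, rose by 0.56 ± 0.07 (adjusted p = 0.0347). Amacr, which inverts the side chain of bile acid precursors, had a log2 ratio of -0.53 (adjusted p = 0.0418), and Slc27a5, a bile acid CoA ligase, had -0.36 (adjusted p = 0.0462).

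Of 27 measured regulators, 2 rose, 1 fell and 24 did not pass, with a median of -0.04. Nr1i2, which encodes PXR, had a log2 ratio of 0.49 ± 0.07 (SE, limma adjusted p = 0.0498), just inside the threshold. Nr1h4, which encodes FXR, had 0.40 (adjusted p = 0.0521), just outside it, and Nr1i3, which encodes CAR, had -0.04 (adjusted p = 0.701). Cebpa, which encodes C/EBPα, had -0.76, -0.82, -0.51 and -0.27 on arrays 1 to 4 and a fitted log2 ratio of -0.59 ± 0.06 (SE, limma adjusted p = 0.0298). Onecut1, a factor known for its part in female liver expression, had 0.55 ± 0.05 (adjusted p = 0.0217), but its arrays split by dye, with -0.07 and -0.12 on arrays 1 and 2 and 1.22 and 1.19 on arrays 3 and 4.

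Of 24 measured textbook targets of CAR, PXR and FXR, 0 rose, 2 fell and 22 did not pass by limma, with a median of -0.02. At an unadjusted p under 0.05, 3 were higher and 7 lower. The 2 that fell were the drug-metabolising Cyp2c29, with a log2 ratio of -0.43 (adjusted p = 0.0319), and Cyp2c37, with -0.42 (adjusted p = 0.0439). Cyp2b10, the standard readout of CAR, had 0.09 (adjusted p = 0.413), and Cyp3a11, that of PXR, had 0.07 (adjusted p = 0.603).

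Genes known to be higher in female liver did not move one way. Of 17 measured, 3 rose, 3 fell and 11 did not pass, with a median of 0.25. By limma at an unadjusted p under 0.05, 6 were higher and 3 lower. Those that rose included Cyp17a1, given above, and Cyp2b13, with a log2 ratio of 0.47 ± 0.06 (SE, limma adjusted p = 0.0337). The organic anion transporter genes Slc22a27, with a log2 ratio of -1.41 ± 0.07 (adjusted p = 0.00966), and Slc22a26, with -0.99 ± 0.11 (adjusted p = 0.0298), fell. So did the fatty acid hydroxylase Cyp4a14, with -1.32 ± 0.11 over 3 arrays (adjusted p = 0.0323). On arrays 1 to 4 Slc22a27 had -0.81, -1.08, -1.89 and -1.88, and Slc22a26 had -0.65, -0.70, -1.02 and -1.60. Cyp2b13 had 0.68, 0.70, 0.18 and 0.35.

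Of 16 measured genes known to be higher in male liver, 5 rose, 0 fell and 11 did not pass by limma, with a median of 0.22. At an unadjusted p under 0.05, 9 were higher and 3 lower. The fatty acid elongase Elovl3 rose by 1.21 ± 0.11 (SE, limma adjusted p = 0.0229), and the fatty acid hydroxylase Cyp4a12b rose by 1.08 ± 0.08 (adjusted p = 0.0206). The urinary protein gene Mup21 rose by 0.81 ± 0.06 (adjusted p = 0.0169) and Susd4 by 0.74 ± 0.09 (adjusted p = 0.0374). Susd4 and Cyp4a12b differed by dye orientation. So did other called genes, among them Hsd17b10, Amacr, Cyp2b13, Slc22a26 and Slc22a27. The fitted dye effect takes up such a split, so the SE does not show it. On arrays 1 to 4 the log2 ratios of Susd4 were 0.52, 0.04, 1.23 and 1.16. Those of Cyp4a12b were 0.36, 0.77, 1.52 and 1.65. The fifth was Nudt7, a peroxisomal CoA hydrolase, with 0.42 (adjusted p = 0.0369). Mup21 and Cyp4a12b belong to families of near-identical copies, so their probes may read more than 1 gene. Of list genes, 22 were called with all 4 arrays, and 2, 0, 3 and 2 were called without arrays 1, 2, 3 and 4 in turn.

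**Figure D5:**
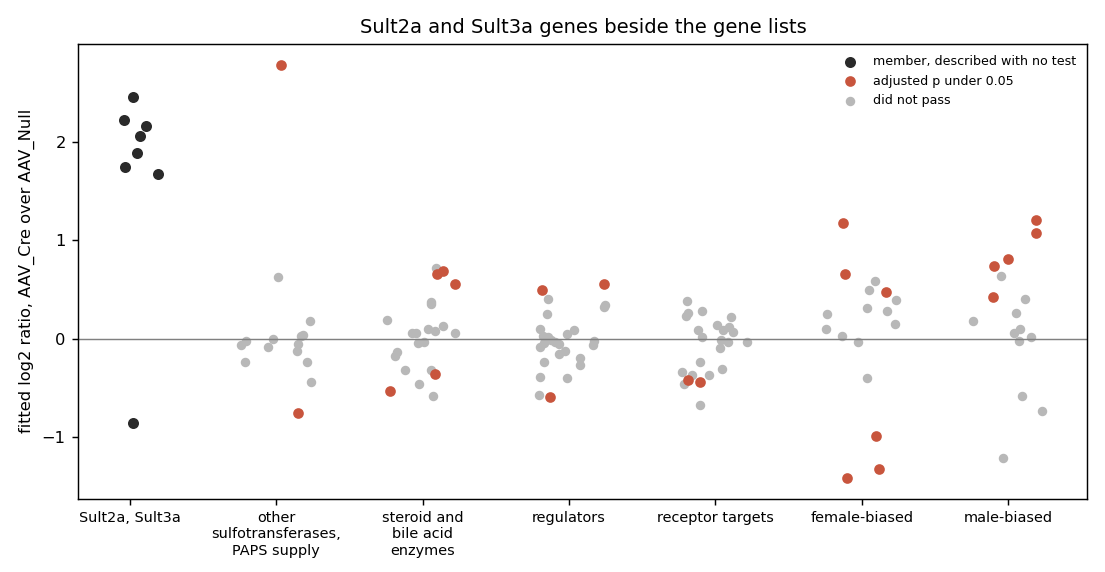
Fitted log2 ratio of AAV_Cre over AAV_Null (y axis) for the 8 fitted Sult2a and Sult3a genes and for the measured genes of 6 lists (x axis, points spread sideways at random). Red points passed a limma adjusted p of 0.05, and the highest of them, at 2.79, is Sult1e1.

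The genes most like each of 3 family members were found from the root mean square difference of their levels over the 8 channels, each gene centred on its mean. Sult2a and Sult3a genes were left out of this ranking. Closest to Sult2a1 among 12151 other genes were Gadd45a, a stress-induced growth arrest gene, at 0.41, Miox, the inositol oxygenase, also at 0.41, and the vomeronasal receptor gene Vmn1r214 at 0.45, where the median gene stood at 1.07. Their log2 ratios were 1.29, 1.42 and 1.24. Closest to Sult2a8 were Cys1 at 0.21, Zfpm1 at 0.22 and Cox7a1 at 0.22, against a median of 0.53, with log2 ratios of -0.56, -0.75 and -0.73. Closest to Sult3a1, with marked spots kept, were Pdf at 0.34, Trp53inp1 at 0.36 and Fmn1 at 0.37, against a median of 0.80 over 12398 genes. All 8 channels share 4 arrays, so these distances are a description. Levels of both treatments enter the distance, so the nearest genes have ratios like the family member's by selection.

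Markers of other liver cells gave few calls. At the limma threshold, 1 of 5 measured stellate cell markers, Col3a1, was higher (log2 ratio 0.47, adjusted p = 0.0439), and 0 of 7 macrophage, 0 of 7 endothelial, 0 of 4 cholangiocyte, 0 of 2 T cell, 0 of 3 B cell, 0 of 3 neutrophil and 0 of 2 erythroid markers passed. At an unadjusted p under 0.05, 4 endothelial markers were lower and 1 higher, 1 macrophage and 1 neutrophil marker were lower, 3 stellate, 1 cholangiocyte and 1 B cell marker were higher, and 0 T cell or erythroid markers passed. Median log2 ratios were 0.33 for stellate cells, -0.25 for macrophages, -0.20 for endothelial cells and -0.49 for neutrophils. The summed stellate marker level was 15.5 to 15.9 in AAV_Cre and 15.0 to 15.8 in AAV_Null on the log2 scale, and the macrophage level was 14.8 to 15.7 and 15.3 to 15.9. Their part in the family's ratios was not tested.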

How the data were processed

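Per the file headers, Agilent Feature Extraction 11.5.1.1 read each array's spot intensity in both dyes, its local background and a log10 ratio. The deposited log10 ratio was derived from a background-subtracted, dye-normalised intensity, per the file headers. The submitters' processing notes also name limma, without its steps. The authors also deposited a table of log2 values, whose slope against the log10 ratio, 3.34, 3.33, -3.29 and -3.39 on arrays 1 to 4, shows log2 of AAV_Cre over AAV_Null. Its medians were -0.022, -0.038, 0.035 and 0.041, and its normalisation is not given in the sources used here. The labels' protocols describe 2 labelling procedures and do not say which was used.

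With limma 3.58.1 (R 4.3.3), mean spot intensities were corrected by normexp (offset 50), then loess was applied within each array, control spots having weight 0. Channel levels, given on the log2 scale, were also scaled with Aquantile and kept all spots. In the fit, spots marked as outliers were dropped, unless a probe would have lost all of them. A probe was tested if well above background in at least 3 of 4 channels of either treatment and unmarked on at least 3 arrays with both dye orientations. A treatment effect and a dye effect were fitted, each gene was its brightest probe, and Benjamini-Hochberg adjustment ran over 16081 genes, of which 444 passed 0.05. The prior degrees of freedom were 2.66 and the median SE was 0.06. RNA pairs that differ between the 2 orientations are absorbed by the dye effect. The number of arrays, 4, limits the precision. The fit was tested on simulated data.

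Symbols were updated through a RefSeq table (GRCm38.p6): 27508 probes were matched by accession, 404 by synonym and 3544 by symbol, and 7973 stayed under the array's name. Probe positions are those of the array's annotation, on mm9. Probes and promoters were aligned with Biopython 1.88, and figures drawn with matplotlib 3.10.9. Genes and lists were chosen with earlier results of these data known. Named genes were the family and all its probes, the 3 nearest genes of Sult2a1, Sult2a8 and Sult3a1, up to 4 called genes of largest change per list, and Trib1 and Cebpa, of which 1 is not reported here. Slc27a5, Cyp2b13, Nudt7, Nr1h4, Nr1i3, Papss1, Papss2, Cyp2b10, Cyp3a11 and the markers Trf and Col3a1 lay outside that rule and were chosen after their values were seen.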

Additional observations from a re-analysis of the deposited data

Results flagged for a closer look

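Of 25 sets of 4 array values that were tested for a sample far from the others, 1 stood out, and chance alone flags about 1 in 20, or 1.25 here. It was Sult2a7, whose log2 ratio was 1.14 on array 1 and 2.06 to 2.20 on the other 3, a gap of 0.869 of the whole range that is above Dixon's limit for 4 values. The treatments did not overlap for this gene with or without array 1.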

How the results depend on the processing

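The 122 values of the 8 fitted family genes under the alternatives all lay within 1 SD of the reported ones, and 0 reversed. That count is a weak check. Leaving out 1 array or using 1 dye orientation could hardly move a value by the SD of the same arrays. Some alternatives, such as Aquantile scaling, left these values unchanged. The SD was that of a gene's ratios on the 4 arrays with marked spots included, which for Sult2a2 is 0.42, against 0.20 over its 3 unmarked spots, where keeping the marked spot moved the value from 2.06 to 1.81. The alternatives were other background corrections, normalisations, filters and probe rules, the authors' deposited log2 values, no dye effect, each dye orientation alone and each array left out. Sult2a1 ran from 1.46 to 2.02, Sult2a8 from -1.08 to -0.63 and Sult3a2 from 2.25 to 2.69. The median log2 ratio of the family ran from 1.79 to 2.12, with 6 to 9 genes measured. The counts of calls moved far more. From 444 genes and 22 list genes, they went to 81 and 4 with a normexp offset of 0, to 1403 and 39 without background correction, to 1371 and 39 with the authors' deposited table, to 270 and 11 without a dye effect, to 1471 and 43 with a trended, robust empirical Bayes step, and to 1287 and 38 at an adjusted p under 0.1. The count of genes was 777 with Agilent's processed signals and 756 with median centring. With 1 array left out, 0 to 44 genes and 0 to 3 list genes were called, the 0 being without array 2, where 2127 genes had an unadjusted p under 0.05. Fewer arrays were fitted there, and the cause of the other changes was not tested. Across the settings with all 4 arrays, each called list gene kept its sign. Sult1e1 and Slc22a27 were called in 3 of 4 fits with an array left out. With 4 arrays and 2 dye orientations, precision is limited by the number of arrays, and probes marked on over 1 array, as for Sult3a1, could not be fitted. No paired analysis was possible because the 4 arrays are 1 group, so no replicate number is shared between groups. The within-array ratio already sets the RNAs of each array against each other.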
